A study of Mus musculus with 6 samples.

Results

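The genes that lie nearest to confident differences in open chromatin between beige and white adipocytes are described. ATAC-seq peak lists of 2 beige and 2 white libraries were merged into 173141 regions, and beige-only regions were those with a peak of -log10 q of at least 5 in each beige list and with no peak of any q in either white list. White-only regions were the reverse. This gave 4917 beige-only regions, 2.84% of the merged regions, and 1263 white-only regions, 0.729%, so that the members are 6180 of 173141 regions. Each was assigned to the gene whose protein-coding start site in the GENCODE annotation of mm10 lay nearest to the strongest summit. The membership itself is a rule on peak calls in these same 4 libraries and is given as a description. With 2 libraries against 2, an exact permutation test allows no two-sided p below 0.33, and no test was made.

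The cells were grown from the stromal vascular fraction of inguinal fat of male C57BL/6J wild type mice aged 3 to 4 weeks and were collected on day 7 of differentiation. Per the labels, beige medium held rosiglitazone at 1 μM, the thyroid hormone T3 at 1 nM, insulin at 5 μg/ml, dexamethasone at 5 μM and isobutyl methylxanthine at 0.5 mM, and from 48 h the first 3 of these alone. White medium held 5 μg/ml insulin, 1 μM dexamethasone and 0.5 mM isobutyl methylxanthine, and from 48 h insulin alone. The study's methods give other insulin concentrations than the labels. For 2 further libraries, stromal vascular cells of brown fat of such mice were grown in the medium of the beige cells, and these brown libraries took no part in choosing the members. Medium and condition cannot be told apart between beige and white. Nothing in the labels says whether the replicates came from separate cultures. The nuclei were those of whole cultures, so that a region open in fewer cells and a region less open in each cell cannot be told apart.

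White adipocytes store triglyceride in 1 large droplet, whereas beige adipocytes arise within white depots, hold many mitochondria and can burn fuel for heat. In both, the nuclear receptor PPARG and the C/EBP factors switch on the adipocyte genes, and rosiglitazone is a PPARG ligand. Open chromatin away from start sites marks candidate enhancers and also sites of the architectural protein CTCF, and the nearest start site is a label of position that does not show which gene an element serves.

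The 4 lists held 118812 to 127490 peaks. Promoters of the defining adipocyte genes carried a peak in all 4 libraries in 10 of 14 cases, Adipoq, Plin1, Fabp4, Pparg and Cebpa among them. Promoters of progenitor markers did so in 14 of 16 cases, those of endothelial markers in 8 of 14 and those of macrophage markers in 3 of 14, and the part of other cell types in the results was not tested. In single libraries the macrophage count ranged from 3 to 5 of 14 and the endothelial count from 9 to 10 of 14.

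Some members that carry a CTCF or an AP-1 motif, which differed most between the classes in percentage points, are shown before their values. The CTCF motif matched 8.36% of the beige-only and 0.792% of the white-only regions. Several other searched motifs matched more of the beige-only regions than CTCF did. CTCF matches are in capitals in the 121 bases around the strongest summit near Parp16, Galp and Ets1, read from the plus strand of mm10. Parp16 holds the beige-only region with the highest -log10 q, Galp is among the 10 highest, and Ets1 is the gene the study followed.

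Parp16, 1575 bp inside the gene, chr9:65196868-65196988: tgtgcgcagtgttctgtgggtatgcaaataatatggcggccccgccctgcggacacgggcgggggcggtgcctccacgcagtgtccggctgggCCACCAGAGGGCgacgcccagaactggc
Galp, 5516 bp upstream, chr7:6191514-6191634: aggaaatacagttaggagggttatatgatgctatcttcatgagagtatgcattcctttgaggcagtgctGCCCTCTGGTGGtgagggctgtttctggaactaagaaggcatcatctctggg
Ets1, 550766 bp downstream of the start, chr9:33247090-33247210: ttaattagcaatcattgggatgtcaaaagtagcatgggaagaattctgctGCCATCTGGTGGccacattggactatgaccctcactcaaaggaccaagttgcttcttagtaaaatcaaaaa

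In white-only regions the AP-1 motif TGANTCA was the most common of those searched, as it also was over all merged regions. It is in capitals around the summits near Cebpa, Cebpd, Klf6 and Runx1, which encode transcription factors and are shown for that reason.

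Cebpa, 27502 bp upstream, chr7:35091731-35091851: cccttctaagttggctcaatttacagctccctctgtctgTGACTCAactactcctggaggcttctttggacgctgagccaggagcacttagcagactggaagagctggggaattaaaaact
Cebpd, 103555 bp downstream of the start, chr16:15990781-15990901: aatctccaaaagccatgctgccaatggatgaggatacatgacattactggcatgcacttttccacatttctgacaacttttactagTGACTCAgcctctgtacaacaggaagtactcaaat
Klf6, 435920 bp upstream, chr13:5425502-5425622: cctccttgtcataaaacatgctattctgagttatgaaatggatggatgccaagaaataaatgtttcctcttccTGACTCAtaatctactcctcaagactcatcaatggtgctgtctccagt
Runx1, 87770 bp downstream of the start, chr16:92608295-92608415: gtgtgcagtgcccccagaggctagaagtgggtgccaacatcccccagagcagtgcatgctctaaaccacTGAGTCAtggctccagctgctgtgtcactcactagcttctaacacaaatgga

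Beige-only regions outnumbered white-only regions by 3.89 to 1. The study lists fewer mapped reads for each beige than for each white library, and the part of depth in the ratio was not tested. The ratio depended on the libraries that set the rule. It was 1.45 without white replicate 1, 1.47 without white replicate 2, 3.00 without beige replicate 2 and 6.94 without beige replicate 1, each with 1 library in place of 2 for that condition. It was 3.56 when the lists were cut to equal length and 1.78 when peaks had to cover 50% of each other. Under such mutual overlap, a peak of the other condition that overlapped by less did not exclude a region. Beige-only was the larger class in all 6 of these settings, while the ratio ranged from 1.45 to 6.94. A further 4059 beige and 2653 white regions had a peak in both libraries of the condition and in none of the other but missed the minimum. The lower of the 2 values was 5.00061 just inside the minimum and 4.99384 just outside it for beige, and 5.0031 and 4.9955 for white.

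The -log10 q of a peak measures its confidence within its own library. Its median in beige-only regions was 8.26 in beige replicate 1 and 10.2 in beige replicate 2. In white-only regions it was 7.72 in white replicate 1 and 7.36 in white replicate 2. A lower value of at least 10 was reached by 1245 beige-only and 94 white-only regions, and the white-only values lay closer to the minimum.

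Within 1 kb of a start site were 6.94% (95% Clopper-Pearson interval 6.24 to 7.68) of the beige-only and 6.41% (5.13 to 7.91) of the white-only regions, against 22.5% (22.2 to 22.8) of the 66977 regions with a peak in all 4 libraries. Of the 99984 merged regions in neither class and without a peak in all 4 libraries, 7.03% (6.87 to 7.19) lay there. The low share was therefore not particular to the members. The white-only share rose to 13.3% without white replicate 1 and to 27.0% with 50% mutual overlap, above that of the shared regions, where the beige-only share was 13.0%. Under 50% mutual overlap a member could still overlap a peak of the other condition by less. The 95% intervals, here and below, cover counting error only. Introns held 44.5% of the beige-only and 40.1% of the white-only regions, and 43.2% and 49.3% were intergenic. The median distance to the start site was 23400 bp for beige-only and 32287 bp for white-only regions, and 16.8% (15.8 to 17.9) and 27.4% (25 to 29.9) lay beyond 100 kb. Shared regions had a median of 18962 bp, with 16.5% beyond 100 kb. The 99984 remaining regions had 33704.5 bp and 24.7%, with 41.2% in introns and 47.2% intergenic. These values lay closer to the white-only than to the beige-only ones, so the far position was not particular to white-only regions. Of the beige-only regions 12.1% lay inside another gene than the one of the nearest start site, and of the white-only regions 9.5%. On chromosome X 3.73% of the merged regions were beige-only and 0.788% white-only, while single autosomes ranged from 2.24% to 3.31% and from 0.497% to 0.918%.

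**Figure D1:**
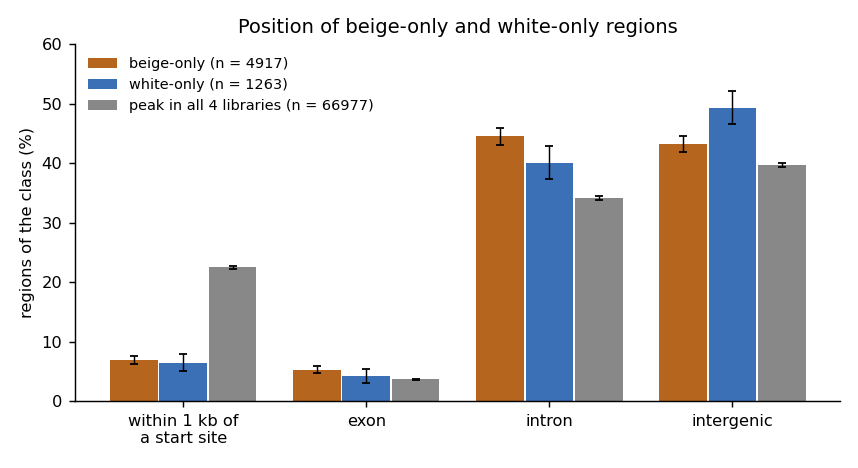
Share of regions (%, y axis) by position relative to protein-coding genes for beige-only, white-only and shared regions, with 95% Clopper-Pearson intervals as error bars. Within 1 kb of a start site stand 6.94% of beige-only, 6.41% of white-only and 22.5% of shared regions, and white-only regions have the larger intergenic share of 49.3%. The remaining merged regions, of which 7.03% lie within 1 kb and 47.2% are intergenic, are not drawn.

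Promoter members were often neighbours of a peak that the other condition did have. A peak of the other condition lay within 500 bp of 24.3% of all beige-only and 22.7% of all white-only regions, but of 70.1% (239 of 341) of the beige-only and 69.1% (56 of 81) of the white-only regions within 1 kb of a start site. Leaving these out, 102 beige-only and 25 white-only promoter regions remained. An example is Kdm5d on chromosome Y, an H3K4 demethylase gene, whose 2 beige-only promoter regions lay 26 and 291 bp from a white peak.

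Genes with at least 1 beige-only region numbered 3799 of the 18595 genes with a merged region, or 20.4%. Genes with a white-only region numbered 1133, or 6.09%. Of these, 2971 and 1023 had exactly 1 such region. At least 3 regions lay nearest to 207 genes (1.11%) for beige-only and to 18 genes (0.0968%) for white-only. Both classes met at 419 genes, which are 11% of the genes with beige-only and 37.0% of the genes with white-only regions. Genes with several members were genes with many open regions. The median number of merged regions was 5 over all genes, 36 for genes with at least 3 beige-only and 41.5 for genes with at least 3 white-only regions, and the members made up a median of 9.26% and 7.28% of the regions of these genes. The counts of genes with at least 3 regions fell to 108 and 4 when regions beyond 100 kb were left unassigned.

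Sh3kbp1, Gata3 and Dlg2 had the most beige-only regions, 6 each. Sh3kbp1, an adaptor protein of receptor endocytosis on chromosome X, had 6 beige-only among 33 regions over 305 kb and no white-only region. Its regions had a -log10 q from 5.76 to 17 in beige replicate 1 and from 5.24 to 13.2 in beige replicate 2, and both brown libraries had a peak in 3 of them. Gata3, a transcription factor gene known to hold back adipocyte differentiation, had 6 of 58 regions, all of them 593 to 1203 kb from its start site. The region at 1124 kb reached 33.6 and 39.1 in the 2 beige libraries, and the other 5 ranged from 5.40 to 14.1. Gata3 also had 1 white-only region, at 348 kb, with 12.9 and 6.94 in the 2 white libraries. Dlg2, a scaffold protein gene, had 6 beige-only and 2 white-only among 71 regions over 1746 kb.

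A further 17 genes had 5 each, and the 12 of them with the largest share of beige-only among their regions are named, which makes 15 genes. Ppargc1b, a coactivator of mitochondrial genes, had 5 of 29 regions over 101 kb. The values in beige replicates 1 and 2 were 12 and 16.2, 6.04 and 11.6, 19.6 and 30.3, 19.1 and 19.1, and 15 and 9.63, and 3 of the 5 were also peaks of both brown libraries. The lowest of these values was 6.04. Slc1a3, a glutamate transporter gene, had 5 of 31 regions, and 4 of them were peaks of both brown libraries too. Kcnj15, a potassium channel gene, had 5 of 22 regions, Fam53b 5 of 28 and Agpat4, an acyltransferase gene of lipid synthesis, 5 of 34. The remaining genes were 1700018B08Rik (27 regions), Cradd (47), Sulf2 (54), Plxna2 (58), Mpdz (64), Thsd4 (69) and Gpc5 (71), in each case 5 beige-only. Of the 78 beige-only regions of these 15 genes, 38 lay inside the gene, 27 beyond 100 kb and 0 within 1 kb of a start site, and both brown libraries had a peak in 31.

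White-only regions gathered less. Tas2r119 and Zfp521 had 4 each. Zfp521 encodes a zinc finger factor known to restrain adipogenesis, and its 4 regions among 71 had 12.4 and 11.9, 6.28 and 5.25, 11.5 and 10.3, and 8.28 and 7.69 in white replicates 1 and 2. In 0 of these 4 was there a peak in each of the brown libraries, and Zfp521 had 1 beige-only region as well. The 4 regions labelled Tas2r119, a taste receptor gene, lay 21.0 to 142 kb from its start site among 24 regions. A further 16 genes had 3 each, and the 13 with the largest share of white-only among their regions are named. Cirbp, a cold-inducible RNA-binding protein gene, had 3 of 9 regions within 4.06 kb, at 1.87, 3.86 and 5.93 kb upstream. Only 1 of these 3 lay more than 500 bp from a beige peak. Fbxw4 had 3 of 14 regions, Gm21860 on chromosome Y 3 of 14, Adarb2 3 of 19, Pum3 3 of 21, Ostf1 3 of 29, 4930558K02Rik 3 of 35, Rere 3 of 38, Gmds 3 of 45, Slc39a10 3 of 49, Gm826 3 of 58, Rnd3 3 of 66 and Zeb2 3 of 109. Of the 47 white-only regions of the 15 genes, 25 lay beyond 100 kb and 10 inside the gene, and 8 had a peak in both brown libraries.

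**Figure D2:**
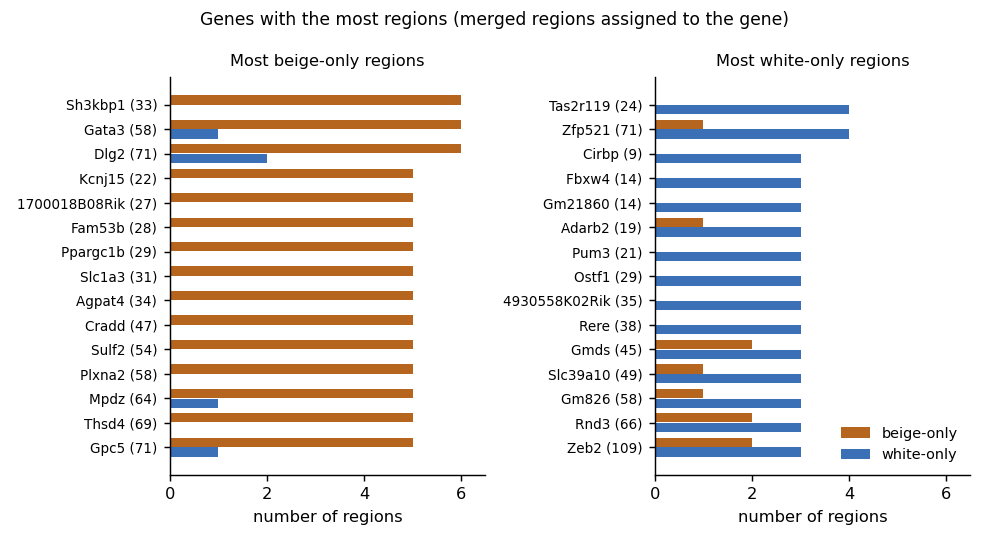
Number of beige-only and white-only regions (x axis) of the 15 genes with the most beige-only regions (left) and the most white-only regions (right), with the number of merged regions of the gene in parentheses. The left counts reach 6 and the right counts 4, and 7 of the genes on the right also hold beige-only regions.

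At least 2 regions of both classes were found at 29 genes. Myc, a growth regulator gene, had 5 beige-only and 3 white-only among 139 regions. Its beige-only regions lay 187 to 672 kb and its white-only regions 469 to 799 kb from the start site, and 4 of 5 against 0 of 3 had a peak in both brown libraries. Dlg2, Nfib, Rbfox2, Zfp608, Pard3, Gpc6, Gmds, Rnd3 and Eef2kmt were the other 9 of the 10 with the most regions of both classes. Nfib, a transcription factor gene of the NFI family, had 4 beige-only and 2 white-only among 95 regions, and 1 of the beige-only regions lay 290 bp inside the gene but 59 bp from a white peak.

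The most confident single regions for beige-only were near Parp16, an ADP-ribosyltransferase gene, with a -log10 q of 55.5 and 59.9 in beige replicates 1 and 2, and Klc3, a kinesin light chain gene, with 45.1 and 59.1 at its start site. Hdgf, Rdm1, Brd2, Tmod1, Galp, Scaf8, Gata3 and Dnah2 completed the 10. The Klc3 promoter stood 5335 bp from the nearest white peak and had 40.5 and 20.1 in the brown libraries, and a second beige-only region at another of its start sites had 7.63 and 7.30. The Parp16 region lay 54 bp from a white peak. The fold enrichment at the summit was under 5 in at least 1 library for 5 of these 10 regions, and 5 of the 10 lay within 500 bp of a white peak. For white-only the 10 were near Polr3k (51.5 and 29.7 in white replicates 1 and 2), Gm10800, Intu, Rasa1, Zcchc24, Rlf, 5530401A14Rik, Epb41l3, Ank and Duxf3. The Polr3k region had 25.1 and 32.7 in the brown libraries, and was without a peak in the beige libraries alone. The Gm10800 region (31.9 and 27.3) had a fold of 3.59 and 3.61.

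Within 1 kb of a start site the 10 most confident beige-only regions were at Klc3, Brd2, Marf1, Kdm5d (2 regions), Pga5, Ltbp4, Bicra, Dhodh and Trmo, and 8 of the 10 lay within 500 bp of a white peak. Pga5 was the other exception besides Klc3, with 29.1 and 31.3 at 582 bp upstream and the nearest white peak at 9382 bp. The 10 white-only ones were at Rasa1, Duxf3, Lgi2, Zdhhc7, Hs2st1, Map3k10, Ammecr1l, Cdh10, Ston2 and Gtf3c6, and again 8 of 10 lay within 500 bp of a beige peak, Cdh10 and Ston2 being the exceptions.

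Genes of lipid handling carried beige-only regions at a share close to that of all regions. Of the 34 lipid storage and lipolysis genes with a merged region, 11 had a beige-only and 2 a white-only region, and 15 of their 480 regions (3.12%, 1.76 to 5.10) were beige-only and 2 (0.42%, 0.05 to 1.5) white-only, against 2.84% and 0.729% of all regions. Over all genes 20.4% had a beige-only and 6.09% a white-only region. Cd36, the fatty acid transporter gene, had 3 beige-only regions 14.0 to 35.1 kb upstream, with 16.8 and 11.3, 9.36 and 20.3, and 7.14 and 9.07 in beige replicates 1 and 2, and 1 white-only region near a start site with 6.13 and 9.74. Of these, the second beige-only region alone lay more than 500 bp from a peak of the other condition. Fabp4, the adipocyte fatty acid binding protein gene, had 1 beige-only region 3.37 kb upstream with 9.70 and 7.58. Lipe, which encodes hormone-sensitive lipase, had 1 at 1.88 kb upstream of a start site with 11.9 and 15, and Plin4, a lipid droplet coat gene, 1 at 1.42 kb upstream with 15.2 and 12.9. Both were also peaks of the brown libraries, with 33.1 and 29.8 at Lipe and 27.0 and 25.2 at Plin4. The Plin4 region lay within 500 bp of a white peak. Gpd1, which makes glycerol 3-phosphate for triglyceride, had 2, of which the one at the start site had 5.67 and 8.28. Abhd5, Plin2, Lpl, Mgll, Scarb1 and Acsl1 were the others.

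In lipid synthesis, 6 of 20 genes had a beige-only and 1 a white-only region, where 20.4% and 6.09% of all genes did, and 7 of 213 regions (3.29%) were beige-only and 1 (0.47%) white-only. Thrsp, the thyroid hormone responsive spot 14 gene, had the clearest one, 149 bp inside its start site, with 19.5 and 28.5 in beige and 27.1 and 31.7 in brown. Elovl6 had 2, and Fasn, Acacb, Insig1 and Scd2 had 1 each. Those at Fasn, Insig1 and Scd2 lay within 500 bp of a white peak. Me1 had the white-only one. Among 34 fatty acid oxidation genes 6 had a beige-only and 2 a white-only region, and 8 of 262 regions (3.05%) were beige-only and 3 (1.15%) white-only. Pdk4, a kinase gene that spares glucose, had 3 beige-only regions, with 19.1 and 11.8, 6.58 and 23.4, and 10.7 and 8.80, and the pair 2.71 and 11.8 kb upstream had a peak in both brown libraries. Cpt1a, the gene of the mitochondrial fatty acid importer, had 1 white-only region near its start site with 11.3 and 5.96, which lay 119 bp from a beige peak.

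Adipoq, the adiponectin gene, had 1 beige-only region 5.06 kb inside the gene among its 8 regions, with 16.0 and 6.99 in beige and 6.53 and 2.37 in brown. Lep, the leptin gene, had 1 at 27.6 kb upstream with 16.2 and 12.7, 152 bp from a white peak. Of 37 genes for secreted factors, 14 had a beige-only and 1, Fgf7, a white-only region, where 20.4% and 6.09% of all genes had one. Of the 563 regions of the 37 genes 17 (3.02%, 1.77 to 4.79) were beige-only and 1 (0.18%, 0.00 to 0.99) white-only, against 2.84% and 0.729% of all regions. The white-only share was 0.243 times that of all regions with all libraries but 0.716 times without beige replicate 2, 0.783 times without white replicate 1, 0.897 times without white replicate 2 and 0.951 times without beige replicate 1. Vegfa, the angiogenic factor gene, had 3 beige-only regions with 6.26 and 9.85, 11.7 and 14.7, and 11.1 and 16.2. Over 14 adipocyte markers 5 had a beige-only region and 6 of 119 regions (5.04%, 1.87 to 10.6) were beige-only, against 2.84% of all regions. The ratio of these shares was 1.77 with all libraries and 1.14 without white replicate 2.

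Thermogenic genes had beige-only regions at 16 of 40 genes and white-only regions at 3, where 20.4% and 6.09% of all genes had one. Of their 644 regions 25 (3.88%, 2.53 to 5.68) were beige-only and 3 (0.47%, 0.10 to 1.36) white-only, against 2.84% and 0.729% of all regions. Without white replicate 2 the beige-only share was 1.04 times that of all regions. Beside Ppargc1b there were 3 at Zfp516, a factor that activates the brown fat program, with 8.71 and 5.35, 13.2 and 24.0, and 8.42 and 6.98. Dio2, the deiodinase gene that makes T3, had 2 at 166 and 291 kb upstream, with 8.49 and 7.61, and 5.52 and 8.80, and Acot11, a thioesterase gene of brown fat, had 2 with 6.95 and 9.63, and 17.5 and 24.6. Esrrg had 2, and Cidea, Ebf2, Irf4, Nrg4, Fgf21, Tbx1, Tmem26 and Letmd1 were among those with 1. Ucp1, the uncoupling protein gene that generates heat, had 12 regions, 4 of them in all 4 libraries, and none was beige-only or white-only. Pparg likewise had no member among 20 regions, of which 11 were in all 4 libraries.

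Genes of mitochondrial energy metabolism had the highest beige-only share of the 23 gene lists, 4.56% (2.68 to 7.2), or 17 of 373 regions, at 11 of 34 genes. Over all regions and all genes the shares were 2.84% and 20.4%. Cox6c had 3, and Cox4i1, Cycs, Pdha1 and Bckdhb 2 each. These regions lay 15.6 to 115 kb from the start site at Cox6c, Cox4i1, Cycs and Pdha1, so that no promoter of these 4 genes was among them. Both Cycs regions lay within 500 bp of a white peak. The share was not stable, since relative to all regions it was 1.60 times as high with all libraries and between 0.902 times without beige replicate 1 and 1.31 times without beige replicate 2 when 1 library was left out.

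Transcription factor genes that steer adipogenesis were the list with the most members in number. Of 47 genes 26 had a beige-only and 13 a white-only region, where 20.4% and 6.09% of all genes had one. The list was also the largest in regions, and the shares were 3.03% (2.29 to 3.93) and 1.10% (0.68 to 1.70) of 1813 regions. These stood against 2.84% and 0.729% of all regions, and the beige-only share was 1.07 times that of all regions. Beside Gata3, Tcf7l2, the WNT effector gene, had 5 beige-only regions, Nfia and Nfib had 4 each, and Cebpb, Zfp423, Tle3 and Tbl1xr1 had 3 each. Of the 3 Cebpb regions only 1 lay more than 500 bp from a white peak. Cebpa and Cebpd had white-only regions and no beige-only region. The Cebpa region, 27.5 kb upstream, had 19.1 and 9.56 in white and 4.70 and 3.81 in brown. Cebpd, an early factor of adipogenesis, had 2 white-only regions with 13.2 and 6.16, and 10.5 and 11.4, neither of them with a peak in brown. Klf6 had 2 with 27.2 and 7.18, and 12 and 7.90. Klf4 had 1 beige-only region, 469 kb away, with 5.40 and 8.80.

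Ets1, the transcription factor gene at the centre of the study, had 77 regions, of which 34 were shared by all 4 libraries, 2 white-only and 2 beige-only. The white-only regions lay nearer, at 95.5 kb with 16.2 and 12.2 and at 178 kb with 9.52 and 11, and stood 4379 and 24733 bp from the nearest beige peak. The beige-only regions lay at 304 kb with 9.05 and 10.2 and at 551 kb with 18.4 and 25.7, and the former lay 59 bp from a white peak. Each class thus made up 2.60% of the regions of Ets1, against 2.84% beige-only and 0.729% white-only of all regions, and rested on 2 regions.

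**Figure D3:**
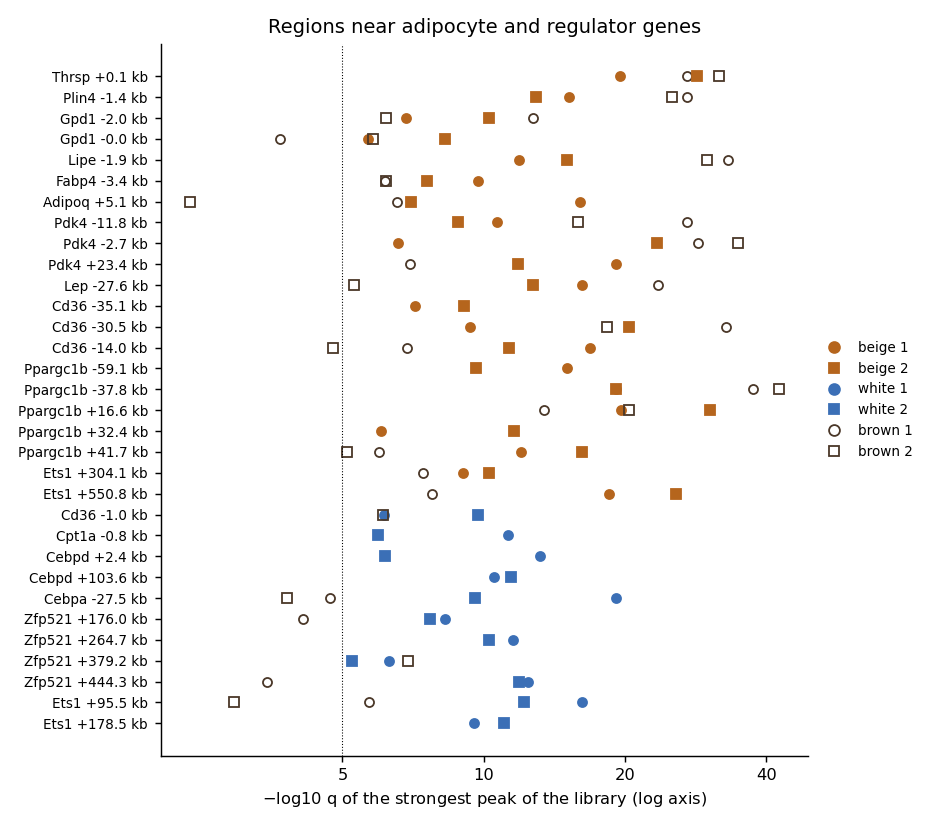
Confidence (-log10 q, log x axis) of the strongest peak of each library in members near 15 adipocyte and regulator genes, with distance to the start site after the gene name. Filled symbols are the libraries of the condition, open symbols the brown libraries where they had a peak, circles replicate 1 and squares replicate 2, and all filled symbols stand right of the dotted minimum of 5.

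Matrix and inflammation genes had beige-only shares under and white-only shares above those of all regions, and the interval of each share held that of all regions. Of 1477 regions of 61 matrix genes, 30 (2.03%, 1.37 to 2.89) were beige-only and 18 (1.22%, 0.72 to 1.92) white-only. The white-only share was 1.67 times that of all regions with all libraries and 1.02 times without white replicate 2. Col3a1, a fibrillar collagen gene, had 2 white-only regions, 1 of them 393 bp upstream with 11 and 9.28 but 92 bp from a beige peak. Dcn and Col5a1 had 3 beige-only regions each. Of 597 regions of 44 inflammation genes, 11 (1.84%) were beige-only and 7 (1.17%) white-only. Cxcl12, a stromal chemokine gene, and Lif, a cytokine gene, had 2 white-only regions each, and both Lif regions were peaks of both brown libraries too. Cartilage and bone genes had 7 beige-only of 578 regions (1.21%, 0.49 to 2.48), among them 1 each at Runx2 and Sox6, and Runx1 had 2 white-only regions.

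The interval of the share held that of all regions for 22 of the 23 lists in beige-only and for 23 of 23 in white-only regions. The exception was the cartilage and bone list, whose beige-only share was 0.426 times that of all regions with all libraries. It was 0.832 times without beige replicate 1, 0.731 times without beige replicate 2, 0.581 times without white replicate 1 and 0.666 times without white replicate 2. The shares ranged from 1.21% to 4.56% for beige-only and from 0.178% to 1.52% for white-only regions, and all 23 lists are read as a description. Glucocorticoid targets had 13 of 455 beige-only (2.86%), with 3 at Pdk4, 2 each at Sgk1, Rhob and Nr3c1, and 1 at Fkbp5, and thyroid hormone genes 11 of 395 (2.78%) beige-only and 6 (1.52%, 0.56 to 3.28) white-only. The latter share, the highest white-only share of the 23 lists, was 2.08 times that of all regions with all libraries, and between 0.826 times without white replicate 2 and 1.64 times without white replicate 1 when 1 library was left out. Other lists with over 20 beige-only regions follow with their shares, against 2.84% of all regions. They were cAMP and adrenergic signalling (26 of 1082, 2.40%, 5 of them at Pde4d, which breaks down cAMP) and nuclear receptors and retinoid genes (28 of 894, 3.13%). TGF-beta and BMP signalling (26 of 1203, 2.16%), angiogenesis and Notch (24 of 1049, 2.29%) and insulin and IGF signalling (23 of 859, 2.68%, 3 of them at Irs2) were others. WNT (21 of 917, 2.29%) and positional genes (21 of 795, 2.64%) were the last. Progenitor genes had 19 of 649 (2.93%), 3 of them at Pdgfra, the receptor that marks adipose progenitors, and contractile genes 18 of 631 (2.85%). The early response and AP-1 genes had 11 of 424 (2.59%), and the TEAD and Hippo genes 7 of 409 (1.71%). Markers of macrophages had 2 beige-only and 1 white-only of 102 regions, those of endothelial cells 2 and 0 of 229, those of progenitors 10 and 1 of 297. Mesothelial markers had 1 and 2 of 65, Schwann cell markers 3 and 2 of 111, and skeletal muscle markers 4 and 1 of 94. White-only shares were 3.08% (0.37 to 10.7) for mesothelial and 1.80% for Schwann cell markers, against 0.729% of all regions, on 2 regions each. Skeletal muscle had 1.06%, macrophages 0.980%, progenitors 0.337% and endothelial cells 0%. Leaving out 1 library gave mesothelial markers 1.31 to 3.59 times and Schwann cell markers 0.77 to 2.97 times the share of all regions. These marker lists were not among the 23, and the part of such cells was not tested.

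**Figure D4:**
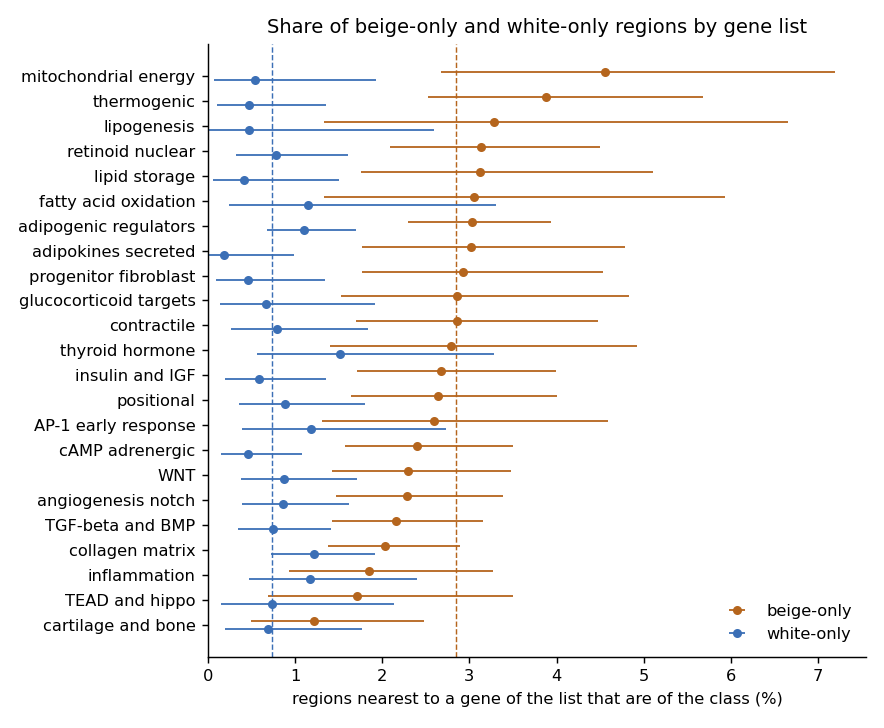
Share of the regions nearest to the genes of each of 23 lists (%, x axis) that were beige-only or white-only, with 95% Clopper-Pearson intervals as bars and the share of all regions as dashed lines at 2.84% and 0.729%. The cartilage and bone list alone has an interval that misses its line, at 1.21% beige-only.

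The brown libraries were not used by the rule. Peaks in both brown libraries were found in 32.2% (30.9 to 33.5) of the beige-only and 15.4% (13.5 to 17.6) of the white-only regions, against 88.0% of the regions shared by all 4 libraries. Both classes thus lay far under the shared regions, which were wider, with a median of 525 bp against 242 and 253 bp. Of the 99984 merged regions in neither class and not shared, 14.4% (14.2 to 14.6) had a peak in both, close to the white-only share. Brown replicate 1 covered 51.4% and 35.6% and brown replicate 2 42.7% and 25.5%, so beige-only stood higher with either. Brown and beige cultures shared the medium and white and beige cultures the depot. The order did not hold in every setting, but these settings also change what the rule asks. With 50% mutual overlap it was 47.4% of beige-only against 64.3% of white-only regions. Members there could still overlap a peak of the other condition by less. Without beige replicate 1 it was 18.7% against 24.0% and without beige replicate 2 22.9% against 28.1%. Without white replicate 1 it was 44.9% against 6.63% and without white replicate 2 39.2% against 8.60%. In each of these the class that rested on 1 library had the lower share. The classes were then held to unlike demands, so leaving out a library cannot decide the order.

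Of 28 motifs searched on both strands within 100 bases of the summit, AP-1 and CTCF differed most between the classes in percentage points. CTCF, which anchors chromatin loops, matched 8.36% (7.6 to 9.17) of the beige-only, 0.792% (0.38 to 1.45) of the white-only, 5.15% of the shared and 3.32% of all merged regions. Its share was 15.9% (13.9 to 18.1) of the 1245 beige-only regions with a lower -log10 q of at least 10, and among the 94 such white-only regions 0 matched, with an interval that reached up to 3.85%. Beige-only regions more than 500 bp from a white peak held it in 10.1% of cases, and beige-only windows with at most 10% repeat bases in 6.88%. Windows with so few repeat bases matched in 0.913% of white-only and 4.92% of shared regions. The 411 matching beige-only regions lay nearest to 397 genes. Matches were fewer in beige-only regions with a peak in both brown libraries (3.22%) than in those with none (12.5%). The share also differed between single libraries. Of all regions with a peak, 4.72% and 4.56% in beige replicates 1 and 2, 3.62% in white replicate 1 and 4.19% in white replicate 2 matched. Of the 7874 regions missed by white replicate 1 alone 8.94% matched, of the 6115 missed by white replicate 2 alone 3.61%, and of those missed by beige replicate 1 or 2 alone 1.16% and 0.591%.

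AP-1, the motif TGANTCA, matched 16.2% (15.2 to 17.3) of the beige-only and 28.5% (26.0 to 31.1) of the white-only regions, against 25.9% of the shared and 21.6% of all regions. Among beige-only regions with a lower -log10 q of at least 10 it was 10.0%. Among regions beyond 1 kb of a start site AP-1 matched 16.8% of beige-only, 29.5% of white-only, 31.7% of shared and 23.9% of all regions. White-only regions thus lay under the shared ones when promoters were left out. ETS, the motif CNGGAAG, matched 17.4% (16.4 to 18.5) and 23.3% (21.0 to 25.7), against 20.5% of all regions. The motif CATCTGG of TWIST and TCF21 factors, whose letters can overlap a CTCF match, was found in 4.62% and 7.92%, against 5.06% of all. For C/EBP, TTGC and AA with 2 bases between, the classes were alike at 15% and 15%, against 13.1% of all.

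Motifs of nuclear receptors were rare. The PPARG motif, AGGNCA repeated after 1 base, matched 27 beige-only (0.549%) and 5 white-only regions (0.396%), against 0.449% of all, and 0.948% (0.532 to 1.56) of the beige-only regions with a peak in both brown libraries. The same letters repeated after 4 bases, to which thyroid hormone receptors bind, matched 82 beige-only (1.67%, 1.33 to 2.07) and 5 white-only regions (0.396%), against 0.538% of all. Of these 82 windows 42 were over 50% repeat sequence. In windows with at most 10% repeat bases the share was 0.358% (0.164 to 0.679) in beige-only, 0.130% in white-only and 0.232% in shared regions. MEF2 matched 52 beige-only (1.06%) and 3 white-only regions (0.238%), against 0.449% of all, and 1.15% of beige-only windows with few repeat bases.

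**Figure D5:**
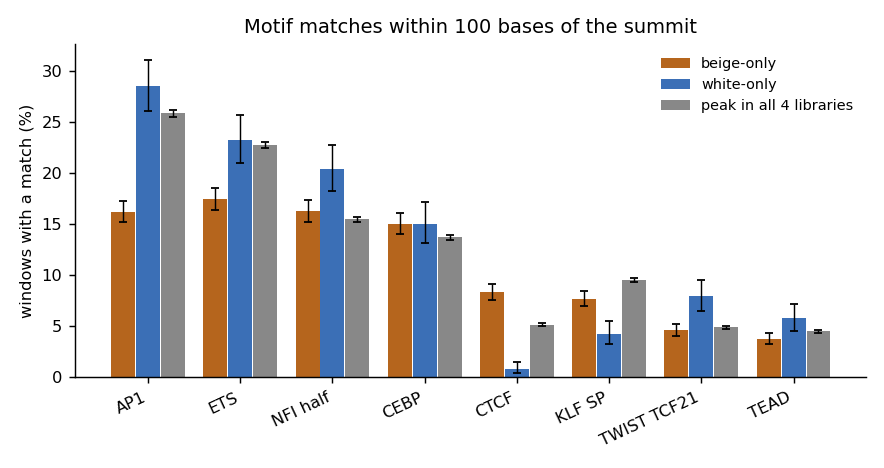
Share of 201-base windows around the summit with a match (%, y axis) for 8 motifs in beige-only, white-only and shared regions, with 95% Clopper-Pearson intervals as error bars. AP-1 stands at 16.2%, 28.5% and 25.9% and CTCF at 8.36%, 0.792% and 5.15%. Beyond 1 kb of a start site, not drawn, AP-1 was at 16.8%, 29.5% and 31.7%.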

How the data were processed

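ATAC-seq was done on 2 beige, 2 white and 2 brown adipocyte libraries. The authors trimmed adaptors with Trimmomatic, aligned paired-end reads to mm10 with BWA and called peaks per library with MACS2 at a q value under 0.05. The deposited lists give, per summit, the fold enrichment (a ratio to the background that MACS2 estimates around the summit), the -log10 p-value and -log10 q, and the summit's offset. They hold no read counts per region. Mapped reads per library, listed in the study's reporting summary and lower in beige than in white, were not used here. Neither value was read as signal between libraries.

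Intervals were taken at their best summit and merged where they overlapped by 1 bp or abutted. No peak was removed for lying in repeated or artefact-prone sequence, and the part of such sequence in the named regions was not tested. Regions were classed as in the results and assigned by the strongest summit to start sites of protein-coding transcripts in GENCODE's basic set. Motifs and sequences were read from RefSeq's GRCm38.p6 assembly, the same sequence as mm10. Named genes were the 15 with most regions and the 10 strongest regions per class (also within 1 kb of a start site), the 10 genes with most regions of both classes, list members and 5 reference genes. The members, gene lists, motifs and alternatives were chosen with earlier results of these data known. Intervals and counts were computed in Python 3.11.15 with scipy 1.17.1, pandas 2.3.3 and numpy 2.4.6, and plots were drawn with matplotlib 3.10.9. Merging, classing and assignment were checked on simulated data.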

Additional observations from a re-analysis of the deposited data

How the results depend on the processing

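The order of beige-only over white-only in numbers of regions and genes held in all alternatives, while the counts themselves moved. With a minimum of 3 beige-only regions numbered 8040 and white-only regions 3164, with 2506 genes with a white-only region, 582 and 119 genes with at least 3 regions, and 29.0% and 13.3% of regions with a peak in both brown libraries. With a minimum of 10 there were 1245 and 94 regions, 1159 and 91 genes, 9 and 0 genes with at least 3, 41.7% and 25.5% in brown, and 7.79% and 10.6% within 1 kb of a start site. With 50% mutual overlap there were 7666 and 4304 regions, 3193 genes with a white-only region, 502 and 208 genes with at least 3, 47.4% and 64.3% in brown, and 13.0% and 27.0% within 1 kb. Members of that setting could still overlap a peak of the other condition by less. Within 100 kb 108 and 4 genes had at least 3 regions. More than 500 bp from the other condition 111 and 9 genes did, with 34.0% of beige-only regions in brown, and 2.74% and 2.56% within 1 kb. With all protein-coding transcripts 8.03% of beige-only regions lay within 1 kb. Leaving out each of the 4 libraries in turn gave 9058 to 15430 beige-only and 2223 to 7443 white-only regions, 5949 to 8197 and 1852 to 4921 genes, 694 to 1713 and 66 to 558 genes with at least 3, 18.7% to 44.9% and 6.63% to 28.1% in brown, and 7.44% to 9.36% and 5.56% to 13.3% within 1 kb. The cause was not tested, but with 1 library in place of 2 the rule asks for less. Equally long lists, the summit replaced by the midpoint, and the other condition counted from a -log10 q of 2 moved none of these counts by over 1.5 times. Counts at single named genes were less steady. Of 24 genes named for most beige-only regions or both classes, 9 had no beige-only region with a minimum of 10 and 2 had at least 3. Of 23 such genes for white-only, 19 had none and 0 had at least 3. Within 100 kb 3 and 9 of them had none, and 12 and 4 had at least 3. With equally long lists 22 of the 23 white-only counts stayed within 1.5 times. Leaving libraries out of the gene lists was chosen after seeing the data. No paired analysis was possible because the results are counts and shares from a rule over all 4 lists and come from no test.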
